A study of Mus musculus with 10 samples.

Results

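The genes described here encode the contractile unit of heart muscle and the proteins that anchor, sense and renew it. They cover the thick and thin filaments, the M-band and Z-disc, the desmin network and proteins induced by load or stretch. Chaperones and methyltransferases that serve myosin assembly or titin, and the muscle ubiquitin ligases, complete the list. Members were named by symbol, by a rule that holds no measured difference between the groups although earlier results of these data were known, and kept when they had a TPM (a level corrected for transcript length and scaled to a common total) above 0 in at least 9 of 10 mice. Of 40 named genes, 39 met this rule, out of 13769 genes that did so among 29564 listed, and all 39 were among the 13293 genes tested. The exception was Mybphl, a relative of myosin-binding protein C known from atrial muscle, whose estimated counts were 0, 0, 5, 4 and 5 in the control mice and 1, 0, 3, 0 and 0 in the other group.

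Bulk RNA sequencing of the left ventricle compared 5 control mice (TT-583 to TT-587) with 5 mice given a high-fat diet and moderate transverse aortic constriction, a band that narrows the aorta (HFD+mTAC, TT-588 to TT-592), which the study uses to model heart failure in which the ejection fraction is preserved. All 10 were wild-type C57BL6 mice, and by the labels all received vehicle (10 mL per kg daily for 6 to 9 weeks in the HFD+mTAC group), so that neither group was untreated. The mice were male. The constricted mice had surgery at 11 weeks of age and a diet with 60% of its kilocalories as fat, the controls had no constriction and a chow with 10%, and induction lasted 16 weeks. Diet and constriction came together, so their parts cannot be told apart. Batches and pairs of mice are not stated.

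In the sarcomere, myosin thick filaments pull on actin thin filaments that are anchored at the Z-disc, while titin spans from Z-disc to M-band and keeps the thick filament centred. Calcium binding to troponin C moves tropomyosin along the thin filament and lets myosin bind. Sarcomere proteins are replaced while the heart beats, which takes dedicated chaperones for myosin folding and ubiquitin ligases that mark myofibril proteins for the proteasome.

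Each library held 34.2 to 53.7 M estimated counts, of which 12.7 to 21.1 M fell on nuclear protein-coding genes. No 2 libraries of a group agreed within sampling noise, and nothing in the labels says more about the replicates than that they are separate mice. Across all 13293 genes, 8 passed an adjusted p of 0.05 in edgeR's quasi-likelihood test (0.0602% of them, 0.0451% higher and 0.015% lower in HFD+mTAC). The 6 cardiomyocyte markers (Myh6, Actc1, Tnnt2, Tnni3, Ryr2 and Pln) summed to 42657 to 46812 CPM (counts scaled to the library size, TMM-normalized) in the control mice and to 35518 to 41857 in the HFD+mTAC mice, without overlap. Most of the sum was Actc1, Tnnt2 and Tnni3 (means of 15212, 13463 and 8428 CPM in control hearts), which are genes of the thin filament. Each of the 6 was lower in the HFD+mTAC mean, by log2 fold changes between -0.25 and -0.07. None passed the adjusted threshold, and in none taken singly did the groups separate completely, as they did in 1.96% of all genes tested. How often a sum over 6 genes separates was not tested. The summed markers of fibroblasts, endothelium, macrophages, smooth muscle and blood overlapped between the groups. The smooth muscle sum was mostly the pericyte gene Rgs5 (1470.2 CPM in control hearts, log2 fold change 0.03), while Myh11, Acta2, Tagln, Cnn1 and Mylk were lower in the HFD+mTAC mean by -0.41 to -0.30, with a list median of -0.32, overlapping groups and no unadjusted p under 0.05. In whole tissue, fewer cells of a type and less RNA per cell cannot be told apart. As for tissue identity, the atrial genes Myl7 and Sln reached at most 21 and 3 counts. The other atrial markers Myl4, Dkk3 and Bmp10 had control means of 3.34, 4.76 and 0.208 CPM and HFD+mTAC means of 2.49, 4.54 and 0.583 CPM. The fast skeletal myosins Myh1, Myh2 and Myh4 reached at most 5, 5 and 2 counts and Actn3 at most 6, and Tnnt3 had means of 0.498 and 0.397 CPM. Ckm, also on the skeletal list, was at 2086 and 1933 CPM, so that list was not low throughout. The adipocyte markers were too low to test.

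The members' levels ran from 0.870 to 8053 TPM. Per transcript length, the 3 highest were Myl2, the regulatory light chain of ventricular myosin, with a mean of 8053 TPM over the 10 mice, Tpm1, the main cardiac tropomyosin, with 4279.9 TPM, and Tnnc1, the calcium-binding subunit of troponin, with 2497 TPM. Then came Myl3, the ventricular essential light chain (576 TPM), Tcap, or telethonin, which links titin molecules at the Z-disc (559 TPM), and the LIM-domain protein Fhl2 (474 TPM). The lowest were Pdlim3, a Z-disc protein that binds alpha-actinin (2.20 TPM), and Fbxo32, the ubiquitin ligase subunit atrogin-1 (0.870 TPM). Together the 39 members took 11.5 to 14.1% of the TPM of nuclear protein-coding genes in each mouse, and Myl2 alone took 4.6 to 6.4%.

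The order of the lower levels depends on the lengths used. The average effective length that the quantification gave exceeded the longest annotated transcript for 13 of 39 members, as it did for 47.7% of all genes tested. Fbxo32 had 29471 effective bases against 6976 annotated, Smyd1 14118 against 3361 and Flnc 22656 against 9038. Tnnc1 stood at 251 bases in every mouse, a value at which 582 of all genes listed were held throughout. With CPM per kilobase of the longest annotated transcript in place of TPM, Myl2 stayed the highest and Tnnc1 (5799.9) moved above Tpm1 (5162), Mybpc3 moved from rank 14 to rank 7 and Smyd1 from rank 27 to rank 17. Counts and TPM of one gene are compared between mice below, and these differences between genes do not enter the comparisons of counts. The estimated length of a gene also varied between mice, as in Smyd1 with 2684 bases in TT-588 and 21453 in TT-589. That variation does enter the comparisons of TPM.

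The windows before the transcription starts were searched for motifs known from muscle genes, namely the CArG box of serum response factor, the MEF2 motif, the M-CAT element CATTCC of TEAD factors, the FOXO element GTAAACA and the E-box CANNTG. RefSeq windows of 300 bases (250 before and 50 after each start, GRCm38.p6) were found for 33 members and searched on both strands. A CArG box lay in windows of 6 members, 18.2% of those with a window, against 1.81% of all genes with one, and a MEF2 motif also in 6 members, 18.2% against 2.16%. The holders differed: Myl3, Myom1, Ldb3, Nebl, Fhl1 and Fhl2 had a CArG box, whereas Ttn, Mybpc3, Myoz2, Synpo2, Synpo2l and Xirp2 had a MEF2 motif. The M-CAT element was found in 12 members (36.4% against 16.6%), the E-box in 27 (81.8% against 75.0%) and the FOXO element in Trim63 alone (3.03% against 4.05%). These are matches of letters and no site is claimed from them. To show an instance of each of the first 4 elements outside the gene's annotated exons, the 250 bases before a start are given 5′ to 3′ with the matched letters in capitals.
Tnnc1, M-CAT on the reverse strand, chr14:31208062-31208311, plus strand: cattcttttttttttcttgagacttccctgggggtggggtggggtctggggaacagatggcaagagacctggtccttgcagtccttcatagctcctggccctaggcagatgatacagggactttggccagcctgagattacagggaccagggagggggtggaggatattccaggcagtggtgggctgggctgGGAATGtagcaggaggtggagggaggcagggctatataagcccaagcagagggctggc
Ttn, MEF2 motif, chr2:76982548-76982797, minus strand: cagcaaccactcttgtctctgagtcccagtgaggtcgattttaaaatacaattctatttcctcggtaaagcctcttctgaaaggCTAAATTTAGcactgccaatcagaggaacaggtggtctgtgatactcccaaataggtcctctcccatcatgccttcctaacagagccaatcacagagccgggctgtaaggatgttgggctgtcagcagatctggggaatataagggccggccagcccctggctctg
Fhl2, CArG box, chr1:43163962-43164211, minus strand: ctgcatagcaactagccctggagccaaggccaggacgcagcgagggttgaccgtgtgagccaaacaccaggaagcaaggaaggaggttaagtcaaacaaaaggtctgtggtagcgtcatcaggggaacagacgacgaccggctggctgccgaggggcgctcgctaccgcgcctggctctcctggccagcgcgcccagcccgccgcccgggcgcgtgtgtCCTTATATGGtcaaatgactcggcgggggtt
Trim63, FOXO element and then M-CAT, both on the reverse strand, chr4:134314870-134315119, plus strand: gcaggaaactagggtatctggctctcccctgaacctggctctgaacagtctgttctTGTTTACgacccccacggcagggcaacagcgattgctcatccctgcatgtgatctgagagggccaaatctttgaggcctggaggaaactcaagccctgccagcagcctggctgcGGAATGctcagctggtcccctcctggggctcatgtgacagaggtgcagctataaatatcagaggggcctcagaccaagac
The last base of the match lies 53 bases before the start in Tnnc1, 157 in Ttn and 22 in Fhl2. The start used for Fhl2 is an internal one, and its window lies inside the gene as annotated (chr1:43123074-43196984). The windows of Tnnc1, Ttn and Trim63 end where the annotated gene begins. In Trim63 the FOXO element lies 188 bases and the M-CAT element 75 bases before it.

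The main comparison asked whether the genes of the contractile apparatus differed in RNA level between HFD+mTAC and control hearts. At an adjusted p of 0.05 in edgeR, 0 of 39 members were called, beside 0.0602% of all genes. DESeq2 called 0 members as well, against 0.921% of the genes it tested. At an unadjusted p under 0.05 edgeR gave 2 members, Tnnc1 and Tpm1, both lower in HFD+mTAC, that is 2 of 39 where 8.27% of all genes passed, 4.54% as higher and 3.72% as lower. In no member did the groups separate completely, as they did in 1.96% of all genes. The median log2 fold change of the members was 0.01 (0.00 for all genes tested), with 20 higher and 19 lower, and 35 of 39 lay within 0.25 of 0.

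The intervals tell how large a difference could have been missed. The half-width of the 95% interval of the log2 fold change ranged from 0.141 for Fhl1 to 0.476 for Myom1, apart from Ankrd1 at 2.35. For 28 of 39 members the whole interval lay within 0.5 of 0, and for 38 it lay within 1. In this fit of counts a change of 2-fold in the group mean was therefore outside the interval of every member but Ankrd1. Changes of the size of a log2 fold change of 0.25 lay inside many of the intervals. On log2(TPM + 1) limma gave Smyd1 an SE of 0.68, so a 2-fold change was not outside its interval on that scale. The plot of fold changes by role shows these intervals side by side.

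**Figure D1:**
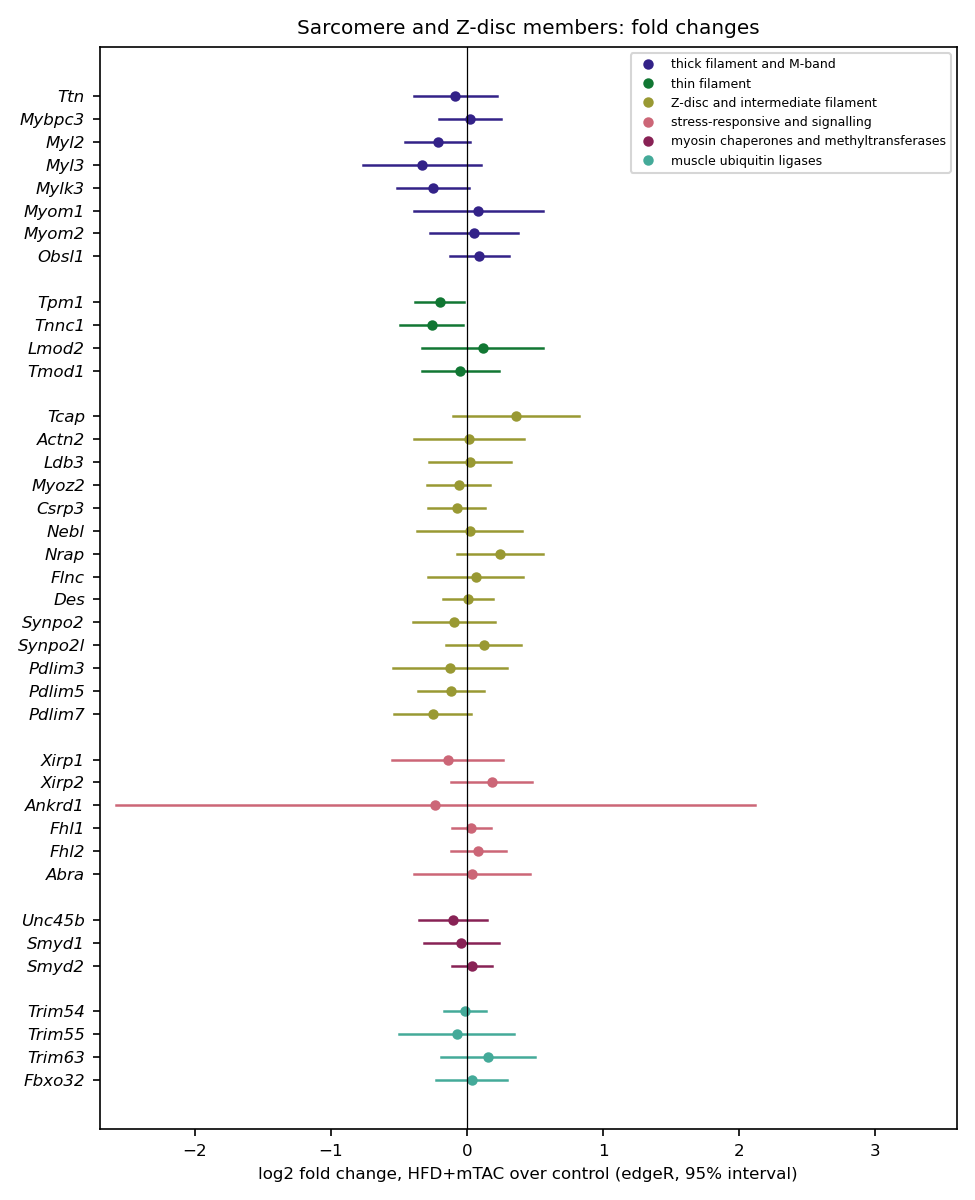
Log2 fold change of each of the 39 members (points, HFD+mTAC over control, edgeR, n = 5 mice per group) with its 95% interval (lines), grouped and coloured by role. Of 39 intervals, only those of Tpm1 and Tnnc1 leave out 0, before adjustment for the number of genes, and the interval of Ankrd1 spans -2.58 to 2.11.

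Thick filament and M-band genes showed the lowest fold changes among the light chains and their kinase. Of the 8 tested, 4 were higher and 4 lower in the mean, with a median log2 fold change of -0.03, and 0 reached an unadjusted p of 0.05. The most abundant was Myl2 (chr5:122100951-122113472, plus strand, GRCm38), at 17098, 17453, 17525, 18257 and 21048 CPM in the control mice and 13166, 16557, 18178, 16923 and 13886 CPM in the HFD+mTAC mice. In 4 of 5 HFD+mTAC mice its level was below every control mouse, and TT-590 lay inside the control range. The means ± SD were 18276 ± 1606 and 15742 ± 2125 CPM (5 mice each), which gave a log2 fold change of -0.22 (SE 0.11, edgeR adjusted p = 0.656).

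Myl3 had the most negative fold change of all members in this fit, -0.33 on the log2 scale (SE 0.20, edgeR adjusted p = 0.720). It ran from -0.46 without TT-590 (unadjusted p = 0.0344) to -0.20 without TT-587, and was -0.14 with the length slope described below, where Mylk3 and Ttn were lower. Its control mice ranged from 2391 to 4268 CPM and its HFD+mTAC mice from 1767 to 3403 CPM, so the groups overlapped, with 3 of 5 HFD+mTAC mice below all controls. Mylk3, the cardiac kinase that phosphorylates Myl2, was at 724 ± 104 CPM in control and 609 ± 84.3 CPM in HFD+mTAC hearts, a log2 fold change of -0.25 (edgeR adjusted p = 0.627). Ttn, the giant elastic protein titin, and Mybpc3, cardiac myosin-binding protein C, had log2 fold changes of -0.09 and 0.02. The M-band proteins Myom1, Myom2 and Obsl1, which crosslink thick filaments or tie them to other structures, had 0.08, 0.05 and 0.09. Among the thick-filament members the light chains and Mylk3 thus had the lowest values, none of them called.

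The thin filament held both members with an unadjusted p under 0.05. Tnnc1 (chr14:31208312-31211729, plus strand) was at 4452, 4460.3, 4342, 4307 and 5229 CPM in the control mice and at 3102, 3759.6, 4392, 4212 and 3561 CPM in the HFD+mTAC mice. All HFD+mTAC mice but TT-590 lay below all controls. The difference was -0.26 on the log2 scale (SE 0.11, 95% interval -0.49 to -0.03, unadjusted p = 0.0299, edgeR adjusted p = 0.525), and an exact permutation test over the mice gave p = 0.0238 (two-sided).

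Tpm1 (chr9:67022590-67049406, minus strand) had 16188, 16154, 16185, 15195 and 16065 CPM in the control mice and 12829, 15571, 13999.5, 13869 and 13126 CPM in the HFD+mTAC mice. Its controls were close together, 4 of 5 HFD+mTAC mice lay below them all, and TT-589 lay above the control TT-586. The log2 fold change was -0.20 (SE 0.08, 95% interval -0.38 to -0.02, unadjusted p = 0.0313, edgeR adjusted p = 0.532, exact permutation p = 0.0159 on single values). On log2(TPM + 1), which uses the estimated length of 383 to 654 bases in each mouse, limma gave -0.07 for Tpm1 (unadjusted p = 0.666, adjusted p = 0.959) and -0.20 for Tnnc1 (unadjusted p = 0.0623). The members with an unadjusted p under 0.05 on that scale were instead Obsl1 (log2 difference 0.27) and Pdlim7 (-0.31), so neither thin-filament gene had an unadjusted p under 0.05 on both scales.

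Both thin-filament differences went the same way as the summed cardiomyocyte markers given above, and the part of those markers in them was not tested. That sum is itself mostly thin-filament genes, so it is not a reading separate from them. Tnnc1 shares genomic bases with Nisch, which lies on the opposite strand at a mean of 3781 counts; the kit kept strand, but the strand setting of the quantification is not given in the sources used here. The other thin-filament members had smaller differences. Lmod2, leiomodin, which nucleates actin, was at 874 ± 219 and 945 ± 242 CPM, and Tmod1, which caps the pointed end of the thin filament, at 602 ± 77.9 and 581 ± 103 CPM. Their log2 fold changes were 0.11 and -0.05, with intervals that reach 0.56 and 0.23 upwards and -0.33 downwards in both.

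**Figure D2:**
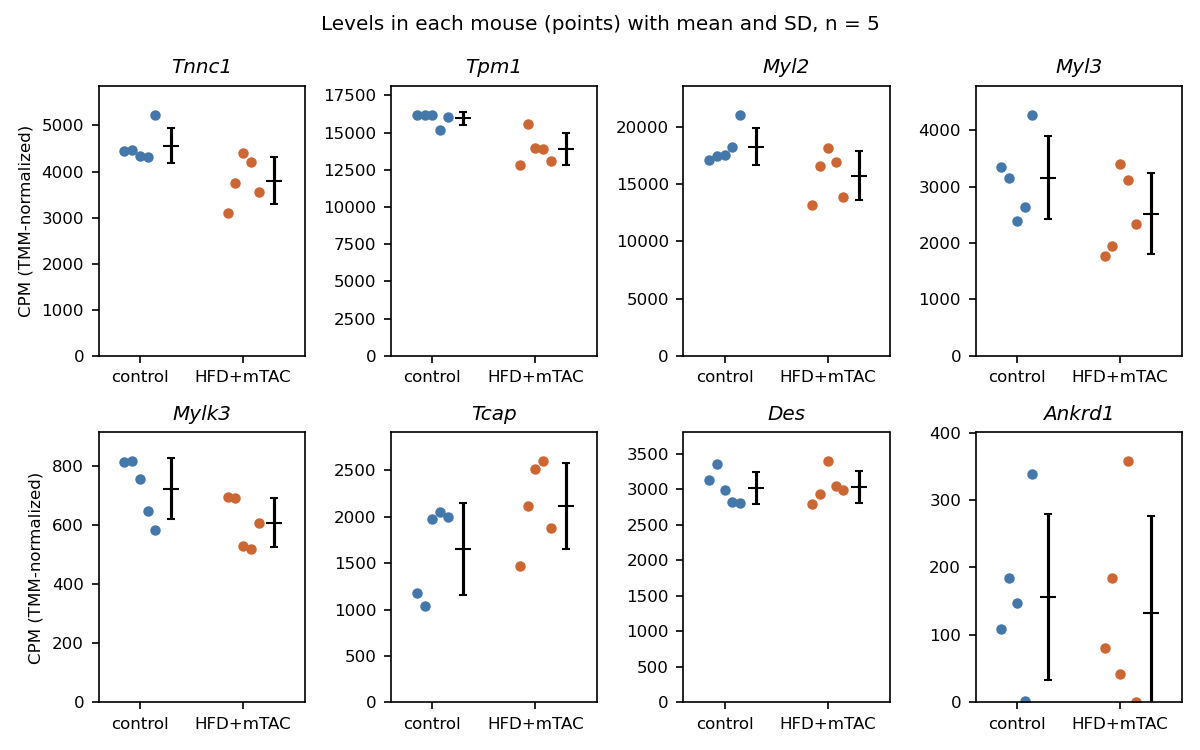
CPM (TMM-normalized, linear axis from 0) of 8 members in each mouse, blue for control and orange for HFD+mTAC, with the group mean and SD beside the points (n = 5). Tnnc1, Tpm1 and Myl2 each have 4 HFD+mTAC mice below all control mice and 1 within the control range, the groups of Des lie at the same level, and Ankrd1 runs from 0 to 357 CPM within HFD+mTAC.

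At the Z-disc and the desmin network 14 members were tested, 8 higher and 6 lower in the mean, with a median log2 fold change of 0.01 and 0 with an unadjusted p under 0.05. Tcap (chr11:98383811-98384953, plus strand) had the largest positive fold change of all 39 members. It was at 1173, 1041, 1978, 2049.6 and 1994 CPM in the control mice and 1466, 2120.0, 2514, 2595 and 1879.5 CPM in the HFD+mTAC mice. The 2 lowest values were both controls, TT-583 and TT-584, and the other 3 controls lay within the HFD+mTAC range. The log2 fold change was 0.36 (SE 0.21, edgeR adjusted p = 0.710, exact permutation p = 0.206), and with 1 mouse left out it ran from 0.23 without TT-584 to 0.46 without TT-588 (edgeR, unadjusted p = 0.0470). On log2(TPM + 1) the difference was 0.55 (limma, unadjusted p = 0.0805).

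Actn2, the alpha-actinin that crosslinks actin at the Z-disc, had a log2 fold change of 0.02, and its binding partners Ldb3 (Cypher) and Myoz2 (calsarcin-1) had 0.02 and -0.06. Csrp3, the muscle LIM protein held to sense stretch, had -0.08, and Nebl, the cardiac nebulin relative nebulette, 0.02. Nrap, which takes part in the assembly of myofibrils and sits at the ends of the cells, was at 708 ± 89.2 CPM in control and 836 ± 175 CPM in HFD+mTAC hearts (log2 fold change 0.24, edgeR adjusted p = 0.714). Its highest 3 values were HFD+mTAC mice and its lowest was one as well.

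Des, desmin, the intermediate filament that links neighbouring Z-discs, had the fold change nearest to 0 of the 39 members, at 3018 ± 228 and 3029.9 ± 222 CPM. The interval of its log2 fold change was -0.18 to 0.19. Flnc, filamin C, Synpo2 and Synpo2l, which bind actin and alpha-actinin, had log2 fold changes of 0.06, -0.10 and 0.12. Of the PDZ and LIM proteins, Pdlim3 and Pdlim5 had -0.13 and -0.12, and Pdlim7 had -0.25 (73.7 ± 9.56 against 62.0 ± 11.4 CPM, edgeR adjusted p = 0.660). All 3 Pdlim genes were lower in the mean and none was called.

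Genes known to respond to load or stretch showed no shared direction: of 6, 4 were higher and 2 lower, with a median log2 fold change of 0.04 and 0 with an unadjusted p under 0.05. Fhl2, a LIM-domain protein that binds titin and restrains calcineurin signalling, was the most abundant (chr1:43123074-43196984, minus strand). It was at 1783, 1765, 1979.9, 1774 and 1423 CPM in the control mice and at 1872, 1982, 1826, 1695 and 1873 CPM in the HFD+mTAC mice. The groups overlapped and the log2 fold change was 0.08 (SE 0.09, edgeR adjusted p = 0.883). Fhl1, its relative, varied least of the 39 members among the control mice, with a coefficient of variation of 2.46%, and had a log2 fold change of 0.03 with an interval of -0.11 to 0.17.

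Xirp1 and Xirp2, Xin-repeat proteins of the intercalated disc, had log2 fold changes of -0.14 and 0.18, and Abra, an activator of serum response factor signalling, had 0.04. Xirp1 overlaps Cx3cr1 on the same strand, a gene at a mean of 47.8 counts. The intervals of these 3 members ran from -0.55 at the lowest to 0.48 at the highest.

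Ankrd1, the cardiac ankyrin repeat protein that binds titin and is known as a marker of cardiac stress, is named here after its values were seen. It was at 109, 184, 148, 2.12 and 339 CPM in the control mice and at 80.9, 184, 42.4, 357 and 0 CPM in the HFD+mTAC mice (chr19:36111961-36120099, minus strand). Each group held 1 mouse close to 0, TT-586 with 30.4 estimated counts and TT-592 listed at 0, while the other 8 mice had 551 to 5230 counts. Only 3 of 3046 genes with a mean over 1000 counts had a mouse under 2% of their mean, the others being Rps14 and Usp47, both in TT-587. The log2 fold change was -0.23 with an SE of 1.08 (edgeR adjusted p = 0.977), and it was -0.55 without TT-586 and 0.09 without TT-592. With any 1 mouse left out it ran from -1.02 to 0.26, and these extremes came from leaving out other mice than TT-586 and TT-592. The fold change thus did not depend on the values near 0 alone. Whether those values come from the tissue or from the quantification of this gene was not tested. At this spread a difference in Ankrd1 was not detectable in either direction.

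Of the 3 chaperones and methyltransferases 0 had an unadjusted p under 0.05. Smyd2, a lysine methyltransferase that methylates the chaperone Hsp90 and helps keep titin stable, was at 139, 144, 136, 130.2 and 139.7 CPM in the control mice and 135, 139.5, 152, 144 and 136 CPM in the HFD+mTAC mice (chr1:189880492-189922363, minus strand). The groups overlapped over most of their range, and the log2 fold change was 0.04 with an interval of -0.11 to 0.18 (edgeR adjusted p = 0.928). Unc45b, the chaperone that folds myosin heads, had -0.10 and Smyd1, the muscle methyltransferase of myosin assembly, -0.04. Smyd1 shares bases with Krcc1 on the opposite strand, at a mean of 796 counts.

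Of the 4 muscle ubiquitin ligases, 0 had an unadjusted p under 0.05. Trim54 (MuRF3, chr5:31116712-31137630, plus strand), which stabilizes microtubules, was at 390.1, 408, 369, 354 and 411 CPM in the control mice and at 362, 382, 388, 395 and 386 CPM in the HFD+mTAC mice. Every HFD+mTAC value lay within the control range. Trim55 (MuRF2, chr3:19644474-19692421, plus strand), which associates with titin and microtubules while sarcomeres form, was at 84.2, 75.2, 122, 104 and 87.7 CPM in the control mice and 119, 108, 72.6, 54.5 and 94.2 CPM in the HFD+mTAC mice. The 2 lowest values were HFD+mTAC mice, TT-591 and TT-590. The log2 fold changes were -0.01 for Trim54 and -0.08 for Trim55, with intervals of -0.17 to 0.14 and -0.50 to 0.35.

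Trim63 (MuRF1, chr4:134315120-134329629, plus strand), which ubiquitinates sarcomere proteins, was at 216, 202, 272, 213 and 169 CPM in the control mice and at 230.2, 285, 203, 173 and 302 CPM in the HFD+mTAC mice. Fbxo32 (atrogin-1, chr15:58175879-58214932, minus strand), the substrate receptor of a cullin ligase raised in muscle wasting, was at 172, 156, 184, 157 and 139 CPM and at 185, 164, 152, 126 and 199 CPM in the same order. In both genes TT-592 was the highest mouse, and TT-587 and TT-591 were the 2 lowest. The same 2 mice were also the lowest in other members, among them Actn2, Lmod2, Flnc and Smyd1. This did not hold for all members, and in Myl2 TT-587 was the highest mouse. The log2 fold changes were 0.15 for Trim63 (edgeR adjusted p = 0.865) and 0.03 for Fbxo32 (adjusted p = 0.967).

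Trim63 and Fbxo32 varied together across the 10 mice. Only 4 pairs of members were correlated, so whether this pair stands out among the members was not tested. On log2 CPM Pearson's r was 0.849 (permutation p = 0.00228, adjusted p = 0.00912 over 4 pairs of members) and Spearman's rho was 0.891 (permutation p = 0.00124, adjusted p = 0.00496). Without TT-589 and TT-592, the 2 mice farthest from the median of Trim63, r was 0.912, and after the group means were taken out it was 0.865. Fbxo32 is itself among the 10 longest members, whose deviation in single mice is described next. With the length slope over all genes taken out of each mouse, a value computed after the data were seen, r was 0.719. That slope did not order the mice as the long members did, so their shared deviation need not be removed by it. The other 3 pairs gave no adjusted p under 0.05: Unc45b with Smyd1 had r = 0.559 and rho = 0.527 (permutation, adjusted p = 0.195 and 0.248), Ankrd1 with Csrp3 had 0.307 and 0.382, and Ankrd1 with Abra had -0.238 and -0.309.

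**Figure D3:**
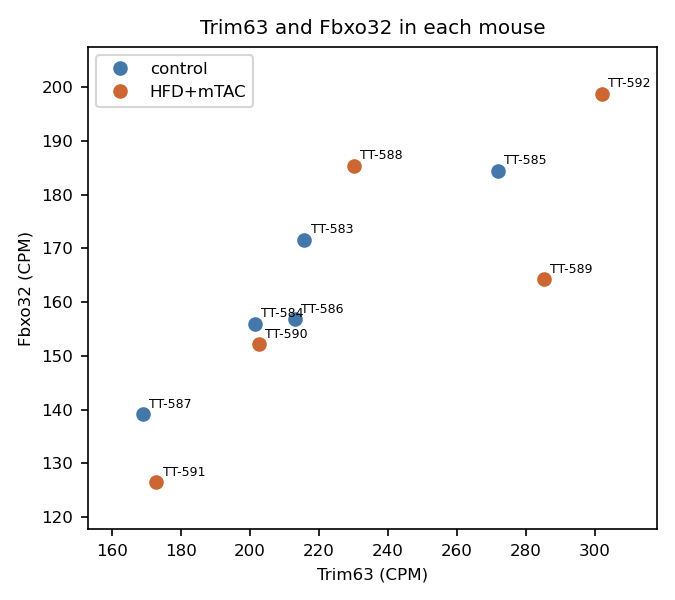
Trim63 against Fbxo32 in each of the 10 mice (both in CPM, TMM-normalized, linear axes that do not start at 0), blue for control and orange for HFD+mTAC. The mice of both groups lie along one rising band, from TT-591 and TT-587 at the low end to TT-592 at the high end.

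In TT-587, TT-588 and TT-591 the members' deviations differed between those with long and those with short average effective transcripts. For each mouse, the median deviation from the 10-mouse mean (log2(CPM + 1)) was taken over the 10 longest members (5453 bases or more, from Mylk3 to Ttn) and over the 10 shortest (795 bases or less, from Tnnc1 to Pdlim7). These lengths are the estimated ones and differ from annotated lengths. Mylk3 and Smyd1, with longest annotated transcripts of 3696 and 3361 bases, were among the 10 longest. Nebl, with 8079 annotated bases, was not. In TT-588 the longest members stood 0.53 above the shortest. In TT-587 and TT-591 they stood lower, with differences of -0.43 and -0.37, and in the other 7 mice the difference was between -0.18 and 0.16. The extreme mice thus came from both groups. In TT-587 and TT-588 the medians of the longest and the shortest members had opposite signs, whereas in TT-591 the shortest were near the mean (0.014) and the longest were at -0.36.

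A slope of log2 level on log2 length was also taken over all genes in each mouse. It ran from -0.032 to 0.019 in the control mice and from -0.034 to 0.054 in the HFD+mTAC mice. It did not order the mice as the members did: TT-588 was highest and TT-587 among the 2 lowest in both, but TT-590 had the lowest slope and TT-591 only -0.015. With this slope as a covariate, a fit added after the data were seen, edgeR called 22 genes at an adjusted p under 0.05 (0.166%) and again 0 members. At an unadjusted p under 0.05 it gave 7 members, all lower (Ttn, Mylk3, Tpm1, Tnnc1, Synpo2, Pdlim5 and Trim55), which is 7 of 39 where 12.1% of all genes passed. How that share of all genes divides into higher and lower was not counted, so the shared direction has no background beside it. Mylk3 had the lowest p of them, with a log2 fold change of -0.33 (unadjusted p = 0.0065, edgeR adjusted p = 0.211), Ttn went from -0.09 to -0.23, and Tnnc1 from -0.26 to -0.18. What these slopes come from was not tested.

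**Figure D4:**
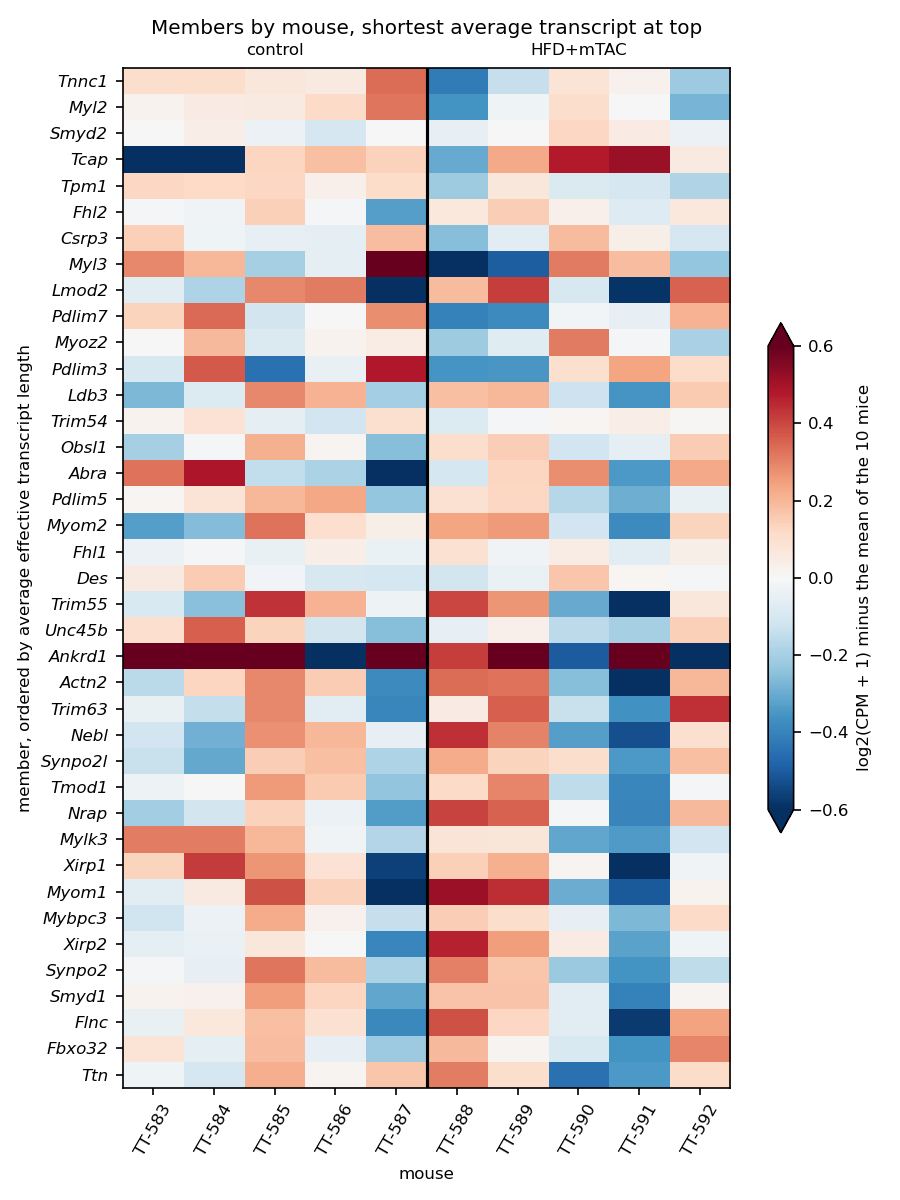
Deviation of each member from its mean over the 10 mice (log2(CPM + 1), red above and blue below, colours saturate at 0.6 on either side), in columns by mouse with the control group left of the line and in rows by average effective length, shortest at the top. In TT-588 most rows at the top are blue and most at the bottom red, in TT-587 the reverse, and in TT-591 nearly all lower rows are blue.

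The average effective length itself, which can change when a gene's transcripts are used in other proportions, was compared in a further test. It exceeded the longest annotated transcript for 13 of 39 members, so it is not a reading of transcript proportions alone. It could be tested for 38 members, all but Tnnc1. With limma on log2 length centred in each mouse, 0 of 38 had an unadjusted p under 0.05, beside 4.2% of all genes, and the lowest adjusted p of a member was 0.804. The ratio of the longest to the shortest length over the 10 mice had a median of 1.30. It was largest for Smyd1 at 7.99. There the estimate ran from 2684 bases in TT-588 to 21453 in TT-589, both HFD+mTAC mice, so this spread too lay within a group. The upper value lies above the 3361 bases of the longest annotated transcript of Smyd1.

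Other genes of the same structures, listed by name, were read from the same fit. Of 30 further sarcomere and Z-disc genes 28 were tested, 13 higher and 15 lower, with a median log2 fold change of -0.02, 0 at an adjusted p under 0.05 and 4 at an unadjusted one. These were Acta1, the skeletal actin re-expressed in the loaded heart, which was higher (232 ± 79.3 against 507 ± 352 CPM, log2 fold change 1.13, edgeR adjusted p = 0.416), Actc1, cardiac actin (-0.25, adjusted p = 0.567), Tnni3, cardiac troponin I (-0.22, adjusted p = 0.600), and Tnni1, the fetal troponin I (-1.74, adjusted p = 0.471). The Acta1 mean rested in part on TT-590 at 1121 CPM, and Tnni1 was below 1 CPM in every mouse. Of 16 genes of protein turnover 16 were tested and 0 had an unadjusted p under 0.05, with a median log2 fold change of 0.07 and extremes in Fbxo40, a muscle ubiquitin ligase subunit (-0.17), and Mstn, myostatin (0.56, at 0.459 and 0.651 CPM).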

How the data were processed

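Left ventricular polyA RNA of 5 control and 5 HFD+mTAC mice was sequenced from stranded libraries. The study's methods give salmon on GENCODE transcripts of GRCm38, and the submitters' notes name Salmon 1.6.0 together with a human build. The methods give paired reads and the labels single-end reads. The authors deposited estimated counts per gene, summed with tximport without normalization (20.07% of values not whole). The authors also deposited TPM, corrected for length and scaled to a common total in each mouse, and the average effective length in bases. These lengths are a signal that is never negative, deposited as tximport gives it.

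Gene symbols were matched to GENCODE M21 (27812 of 29564 by symbol, 864 by an older symbol, 888 not matched). Protein-coding nuclear genes with at least 1 count in 9 of 10 mice were kept, 13293 in all. Counts were rounded and tested with edgeR 4.0.16 (TMM, quasi-likelihood, Benjamini-Hochberg over all genes kept, no covariate, common dispersion 0.0422) in R 4.3.3. DESeq2 1.42.0 and limma 3.58.1 on log2(TPM + 1) were alternatives, and limma tested log2 lengths. These fits were first run on simulated data with known changes. The simulated counts had the same dispersion for every gene and no trend with length. The offset fit was given a constant length there, so its handling of varying lengths was not tried. Permutation tests used Python 3.11.15 and scipy 1.17.1, exact for single genes (smallest p 0.00794) and with 100000 permutations for correlations. Depth was 34.2 to 53.7 M counts, and the precision is limited by n = 5.

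Members and gene lists were chosen with earlier results of these data known. Values in every mouse are given for members with an unadjusted p under 0.05 or an absolute log2 fold change of at least 0.5, for those whose groups do not overlap, for the ubiquitin ligases and for the member of each role with the highest TPM. For the chaperones and methyltransferases this was Smyd2, but in CPM per kilobase of the longest annotated transcript Smyd1 (203) stood above Smyd2 (81.7).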

Additional observations from a re-analysis of the deposited data

Results flagged for a closer look

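Some values stood apart from the rest of their group in Dixon's test (95% critical value for 5 samples), which was run on 78 groups of 5 mice, the 39 members in each group. It marked 3 of them, where chance alone gives about 1 in 20, or 3.9. Tpm1 in the control mouse TT-586 was at 15195 CPM while the other controls were at 16065 to 16188 CPM. Tnnc1 in the control mouse TT-587 was at 5229 CPM while the others were at 4307 to 4460.3 CPM. Synpo2l in the HFD+mTAC mouse TT-591 was at 160.3 CPM while the others were at 219 to 238 CPM.

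Leaving out the mouse concerned moved Tpm1 from -0.20 to -0.22 and Tnnc1 from -0.26 to -0.21 on the log2 scale, and the unadjusted p of Tnnc1 to 0.0746 (edgeR adjusted p = 0.605). Without TT-591 the log2 fold change of Synpo2l went from 0.12 to 0.21 (edgeR, unadjusted p = 0.0781, adjusted p = 0.635).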

How the results depend on the processing

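No paired analysis was possible because the mouse numbers are not shared between the groups. The count of members called at an adjusted p under 0.05 was 0 in every alternative run, and the lowest adjusted p of a member in any of them was 0.146 (Tpm1, DESeq2). Over all genes, the 8 calls of edgeR became 120 with DESeq2, 1 with limma on log2(TPM + 1), 1 on log2(TPM + 0.1), 1 with average lengths as an offset and 22 with the length slope of each mouse as a covariate (added after the data were seen). Members with an unadjusted p under 0.05 went from 2 to 1 on log2(TPM + 0.1) (Pdlim7, beside 6.73% of all genes) and to 7 with the slope (12.1%), and with lengths as an offset they were Mylk3, Synpo2 and Pdlim7 (7.45%), with -0.10 for Tpm1 (unadjusted p = 0.605). The cause of these shifts was not tested. Leaving out 1 mouse at a time gave 1 to 3 genes called and 1 to 4 members with an unadjusted p under 0.05 (beside 6.36 to 9.07% of all genes), the highest without TT-591 (Tpm1, Tnnc1, Nrap and Xirp2) and the lowest without TT-583 or TT-584 (Tnnc1) or TT-592 (Pdlim7). The unadjusted p of Tnnc1 was above 0.05 without TT-587, TT-588, TT-589 or TT-592 (edgeR, up to 0.0746), and that of Tpm1 without TT-583, TT-584, TT-585, TT-588, TT-590 or TT-592 (up to 0.0815). Leaving out 1 mouse gave 0 to 2 members without overlap (beside 2.53 to 3.72% of all genes), which were Tpm1 without TT-586 or TT-589 and Myl2 and Tnnc1 without TT-590.

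Of 39 members, 19 kept their sign in all 20 alternatives and 20 changed it in at least 1. On log2(TPM + 1) the changed ones were Unc45b 0.074, Fbxo32 -0.10, on log2(TPM + 0.1) Unc45b 0.074, Fbxo32 -0.12, with no filter Des -0.00041, and with lengths as an offset Abra -0.0084, Unc45b 0.038, Smyd1 0.19, Fbxo32 -0.15. With the slope they were Mybpc3 -0.049, Myom1 -0.14, Myom2 -0.058, Lmod2 -0.032, Actn2 -0.16, Ldb3 -0.083, Myoz2 0.0094, Nebl -0.17, Flnc -0.075, Pdlim3 0.050, Ankrd1 0.13, Trim54 0.017, Fbxo32 -0.055. With 1 mouse left out the log2 fold change ran from -0.18 to 0.0039 for Ttn, from -0.016 to 0.084 for Mybpc3, from -0.048 to 0.20 for Myom1, from -0.019 to 0.15 for Myom2, from -0.0051 to 0.24 for Lmod2, from -0.14 to 0.029 for Tmod1, from -0.071 to 0.14 for Actn2, from -0.039 to 0.10 for Ldb3, from -0.10 to 0.13 for Nebl, from -0.035 to 0.18 for Flnc, from -0.039 to 0.046 for Des, from -1.02 to 0.26 for Ankrd1, from -0.093 to 0.18 for Abra, from -0.12 to 0.041 for Smyd1, from -0.044 to 0.0093 for Trim54, from -0.20 to 0.057 for Trim55, from -0.041 to 0.11 for Fbxo32. The median over all genes moved by less than 0.1 under every scaling. The precision of 5 mice a group is given by the half-width of the members' intervals, with a median of 0.283 on the log2 scale.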

Other observations

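The 4 genes listed as marks of load on the heart did not share a direction, with 2 higher and 2 lower in the mean. Nppb, the B-type natriuretic peptide, was at 487 ± 134 CPM in control and 330.1 ± 93.3 CPM in HFD+mTAC hearts (n = 5 each), a log2 fold change of -0.56 with an unadjusted p of 0.0247 and an edgeR adjusted p of 0.504, and Nppa, the atrial natriuretic peptide, was lower in the mean as well (270.1 ± 66.9 and 185 ± 93.7 CPM, log2 fold change -0.54, unadjusted p = 0.0762, edgeR adjusted p = 0.659), while Acta1 had 1.13 and Myh7, the slow myosin heavy chain, had 0.35 (edgeR adjusted p = 0.862). Among the markers of other cells, Gsn, gelsolin, listed for fibroblasts, was at 634 ± 119.6 and 799 ± 108 CPM (log2 fold change 0.33, edgeR adjusted p = 0.506). The fibroblast list as a whole had 4 of 7 higher and 3 lower with a median of 0.06, with Dcn, Col1a1 and Dpt at -0.07, -0.04 and -0.01. Bmp10, listed for atrial muscle, stayed under 1 CPM in every mouse.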
